A study of Mus musculus with 14 samples.

Results

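Acute rejection of a transplanted mouse heart was set against established tolerance of the same donor and recipient pairing. The rejecting group held 3 allografts at day 7, Balb/c hearts in C57/BL6 recipients. The tolerizing group held 3 allografts at day 70, also Balb/c hearts in C57/BL6 recipients, which had been given anti CD80/86 mAb. Treatment and day both differ between the groups, so their shares in any difference cannot be told apart from these 6 arrays. The comparison covers the 9586 of 12422 non-control probe sets (77.2%) whose signal was above 11 on at least 3 of the 6 arrays, and these stand for 6915 of the 8251 genes on the array. Of the 9586, 7771 were above 11 on all 6 arrays, 43 entered through the rejecting side alone and 28 through the tolerizing side alone. The 484 probe sets above 11 on exactly 3 arrays had a median highest signal of 22.2, and the 532 left out with exactly 2 had 18.4.

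Another 3 groups of the series served as context: tolerizing allografts at day 7 (3 arrays, the same strains and antibody) and C57/BL6 hearts in C57/BL6 recipients, called isografts, at day 7 (3 arrays) and day 70 (2 arrays). Total RNA came from the transplanted hearts, so donor and recipient cells are mixed in every sample. In such bulk RNA, fewer cells of a type and less RNA per cell cannot be told apart. Whether hearts of a group were separate operations is not stated, and p-values measure the spread between these arrays.

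In an untreated allograft, recipient T cells that recognise donor major histocompatibility complex (MHC) molecules are activated, macrophages and neutrophils follow them into the graft, and heart muscle is destroyed. Full activation of a naive T cell needs the receptor signal together with CD28 binding CD80 or CD86 on an antigen-presenting cell. Antibodies against both ligands withhold that costimulation, and long-lasting acceptance of the graft can follow. Interferon-gamma from T cells and natural killer (NK) cells raises MHC molecules, antigen-processing proteins and several families of GTPases in the cells around them.

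Signals were on 1 scale on every array, with trimmed means of 100.06 to 100.07. The median signal was 38.2 to 45.65 over the 14 arrays, and 72.0% to 78.8% of probe sets were above 11. Correlations of log2 signal were 0.857 to 0.949 within the rejecting group, 0.930 to 0.954 within the tolerizing group at day 70 and 0.831 to 0.902 between them. The arrays carry accession numbers in 2 runs, and array 3 of each group compared lies in the first. The signal of the 18S control was 30.3 to 83.4 in the first run and 120.4 to 254.6 in the second. Ratios of 3′ to 5′ beta-actin signal, which reflect RNA integrity, were 1.61, 1.36 and 1.26 on the rejecting arrays and 1.69, 1.68 and 1.24 on the tolerizing arrays. Rejecting array 3 stands apart from the other rejecting arrays in heart muscle, T cell and matrix genes, and 11 of 142 named genes lose their call without it. Those were Mrc1, Ctsz, Ctsc, Thy1, Gbp2b, Lgmn, Ifi30, Itgal, Vwf, Rpl10a and Ank1.

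H2-Ea, an MHC class II gene that mice of the recipient strain do not express, marks donor tissue. Its signal was 48.1, 50.4 and 217 in rejecting allografts, against 489, 538 and 446 in tolerizing allografts. The groups did not overlap, and rejecting array 3 held the highest of the rejecting values (log2 difference -2.60, SE 0.43, adjusted p = 0.0051). In isografts H2-Ea was 8.1 or lower at day 7 and 12.3 or lower at day 70. All 6 heart muscle markers were above the floor in both groups, so the tissue label was met. Their summed signal was 3084 to 14262 in rejecting allografts, against 19781 to 27588 in tolerizing allografts.

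Of the 9586 probe sets, 349 were higher (3.64%) and 469 lower (4.89%) in rejecting allografts at day 7 than in tolerizing allografts at day 70, 818 in all (8.53%). These calls are limma's at a Benjamini-Hochberg adjusted p under 0.05, and differences are log2 of rejecting minus tolerizing with signals below 11 set to 11. Where only arrays of the lower group were under 11, a difference therefore understates the change. With 1 probe set per gene, 263 of 6915 genes were higher (3.8%) and 390 lower (5.64%), and the median difference over all 6915 was 0.10. Counts of called genes in the lists below are to be read beside these shares. The values of the groups did not overlap for 2341 probe sets (24.4%), including 758 of the 818. All 818 differences kept their sign in every alternative setting that tested them, except for 1 with a floor of 22. Scaling the arrays to equal medians moved the median of all genes to -0.01 and gave 237 higher and 490 lower, so the higher share of the calls was 32.6% there against 42.7%. Lists with a median within that shift of 0 have no settled sign.

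The number of calls depended on which hearts were in the fit. Leaving out rejecting array 1, 2 or 3 gave 378, 273 and 1468 calls, the last being 15.3% of the probe sets. Leaving out tolerizing array 1, 2 or 3 gave 963, 203 and 305. A fit of the 6 arrays alone, with no spread borrowed from the other groups, called 186. Of 142 genes taken by a naming rule, 57 kept the call whichever of the 6 arrays was left out. Such calls are described below as robust, and for other named genes "up to" marks the highest adjusted p with 1 array left out. Without tolerizing array 2, 82 of the 142 were lost, and without rejecting array 2, tolerizing array 3, rejecting array 1, rejecting array 3 and tolerizing array 1 the losses were 65, 58, 53, 11 and 9. Of the 57 robust genes, 40 also kept the call in every other setting. The other 17 missed it in at least 1, most often in the fit of the 6 arrays alone: Actn2, Aurka, Clec3b, Clec4d, Eln, Eno3, Fosl1, Gsta4, H2-Ea, Hadh, Lama2, Mb, Mef2c, Myzap, Notch3, Txnrd1 and Vtn.

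**Figure D1:**
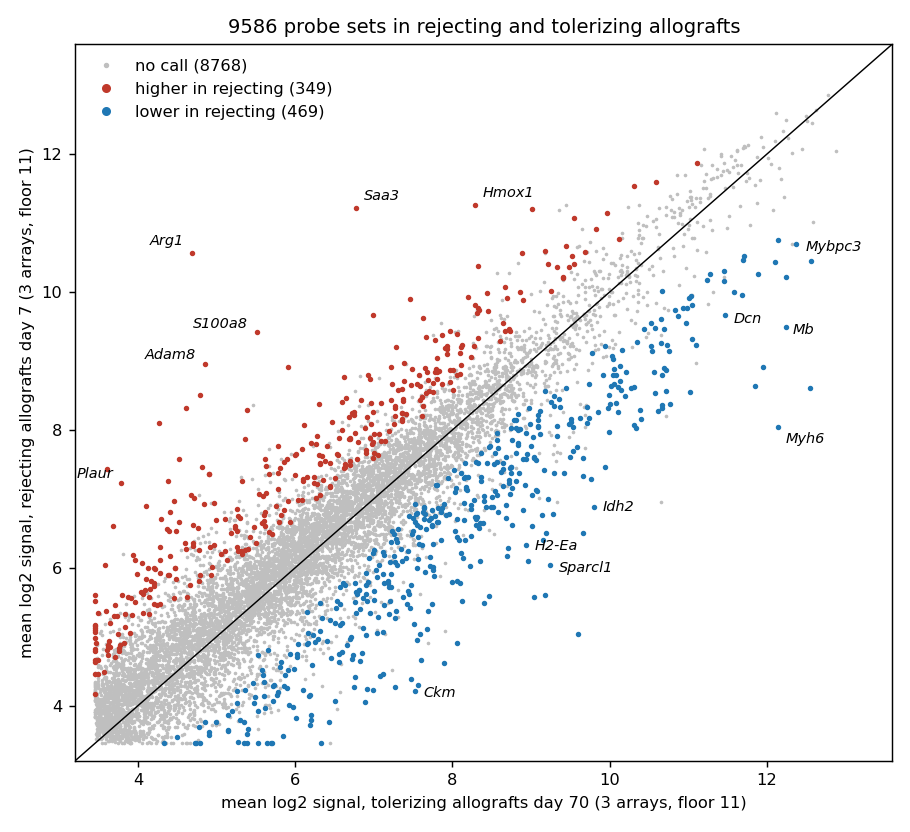
Mean log2 signal of each of 9586 probe sets in rejecting allografts at day 7 (vertical axis) against tolerizing allografts at day 70 (horizontal axis), 3 arrays each, with signals below 11 set to 11. Red points (349) were higher and blue points (469) lower in rejecting allografts, grey points had no call, and the line marks equal signal. Arg1, Saa3 and Adam8 lie far above the line, and heart muscle genes such as Myh6 and Mb lie below it among the brightest probe sets.

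The largest rises included several myeloid genes, and also Tnc, Gzmb and Lox, which are described further below. Arg1, arginase 1, which breaks down arginine in a subset of macrophages, had signals of 3792, 2972 and 314 in rejecting allografts, against 53.7, 28.7 and 4.0 in tolerizing allografts. That is a 59.3-fold rise (log2 difference 5.89, SE 0.86, adjusted p = 0.00292), robust although rejecting array 3 held far less than the other rejecting arrays. Saa3, an acute-phase amyloid protein, was 4009.7, 1972 and 1739.6 in the rejecting hearts, against 209.9, 29.4 and 214 in the tolerizing hearts. It was 21.8-fold higher (log2 difference 4.45), but its call was lost without any 1 of 4 arrays, with an adjusted p of up to 0.159. Adam8, a surface metalloproteinase of leukocytes, was 779.7, 803 and 194 on the rejecting arrays and 51.2, 19.2 and 24.8 on the tolerizing arrays (log2 difference 4.09, SE 0.66, adjusted p = 0.00453), a robust call.

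Of 22 neutrophil and interleukin-1 alarmin genes tested, 9 were higher and none lower (higher in 3.8% of all genes), and 21 of the 22 differences were positive. Their median difference was 1.61, against 0.10 over all genes, with 1.33 within the first accession run and 1.61 within the second. S100a8 and S100a9 encode the subunits of calprotectin, the main cytosolic protein of neutrophils. S100a8 was 1255, 637 and 404 in the rejecting hearts, against 47.6, 37.2 and 54.5 in the tolerizing hearts (log2 difference 3.90, adjusted p = 0.00268). S100a9 was 683, 312 and 229 on the rejecting arrays and 25.8, 28.1 and 29.3 on the tolerizing arrays (log2 difference 3.72, adjusted p = 0.00323). Every rejecting array exceeded every tolerizing array by several fold for both. Ptgs2, the inducible cyclooxygenase of prostaglandin synthesis, was even across hearts of a group at 94.7, 99.4 and 97.8 in rejecting allografts, against 13.4, 14 and 11.4 in tolerizing allografts (log2 difference 2.92, adjusted p = 0.00268). Cxcl2, a chemokine that attracts neutrophils, was 70.9, 83 and 49.2 in the rejecting hearts, against 1.4, 9.5 and 14.3 in the tolerizing hearts, above 11 on 1 of 3 tolerizing arrays (log2 difference 2.46, adjusted p = 0.0051). Clec4d, a lectin receptor of myeloid cells, was 13-fold higher (log2 difference 3.70, adjusted p = 0.00688). These 5 calls are robust. Il6 and the chemokine gene Cxcl5 were 6.92-fold and 5.48-fold higher, but lost the call without tolerizing array 2, with adjusted p of 0.0576 and 0.0503. Leaving out single arrays gave 5 to 14 higher genes in this list, with 5 without tolerizing array 2 and 14 without rejecting array 3. The summed signal of the neutrophil markers was 756 to 2720 in rejecting allografts and 194.5 to 247 in tolerizing allografts, with 2 of 6 higher. Those 2 were S100a8 and S100a9, which also supply most of the sum in rejecting allografts. The markers Csf3r, Cxcr2, Ngp and Ltf had no call (adjusted p = 0.346, 0.276, 0.218 and 0.258). The part of cell number in these rises was not tested.

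Of 34 macrophage and monocyte genes, 10 were higher and 1 lower, with a median of 0.91 (0.86 and 0.90 within the runs). Itgb2, the beta-2 integrin chain shared by leukocytes, was 369, 362 and 590.0 in rejecting allografts, against 128, 93.2 and 161 in tolerizing allografts (log2 difference 1.79, adjusted p = 0.00806). Pirb, an inhibitory receptor of myeloid cells that binds MHC class I, was 318, 321 and 272 on the rejecting arrays and 143, 90.7 and 90.8 on the tolerizing arrays (log2 difference 1.52, adjusted p = 0.0051). Both calls are robust, and the hearts of a group lay close together. The integrin chain gene Itgam and the scavenger receptor gene Msr1 were 4.89-fold and 3.92-fold higher, with adjusted p of up to 0.055 and 0.0807 on leaving out 1 array. Mrc1, the mannose receptor of resident and alternatively activated macrophages, went the other way at 51.1, 41.2 and 23.3 in the rejecting hearts, against 122, 94.5 and 79.3 in the tolerizing hearts (log2 difference -1.41, adjusted p = 0.0372). Its call did not survive the omission of single arrays either (adjusted p up to 0.113). Adgre1, the F4/80 antigen of mouse macrophages, had no call, with 146, 153 and 242 on the rejecting arrays and 219.8, 147 and 375 on the tolerizing arrays (log2 difference -0.39, 95% interval -1.39 to 0.61, adjusted p = 0.659). It was chosen after its values were seen. The number of higher genes fell to 2 without rejecting array 2 or tolerizing array 2 and reached 13 without rejecting array 3. Summed macrophage markers were 3894 to 4981 in rejecting allografts, against 2306 to 3108 in tolerizing allografts, with 3 of 6 higher. Lyz2 supplied the largest part of the sum on each of these arrays and had no call (log2 difference 0.40, adjusted p = 0.46). Csf1r and Cd14 had no call either (adjusted p = 0.0719 and 0.0502).

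Activation state genes of macrophages gave 5 higher and 1 lower of 14, with a median of 1.09. Besides Arg1, Plaur, the receptor of urokinase, was 151, 154 and 145 in rejecting allografts, against 6.5, 12 and 19.8 in tolerizing allografts. Its rejecting values were nearly equal, and the rise was 10.9-fold (log2 difference 3.44, adjusted p = 0.0014). Hmox1, heme oxygenase 1, which degrades heme and is induced by oxidative stress, was 3409, 4204 and 1049 in the rejecting hearts, against 337, 238 and 379 in the tolerizing hearts (log2 difference 2.98, adjusted p = 0.00292). Both are robust. Chil3, a chitinase-like protein of alternatively activated macrophages, was 99.9, 87.2 and 408 on the rejecting arrays and 24.3, 23.3 and 16.1 on the tolerizing arrays, highest on rejecting array 3 (log2 difference 2.87, adjusted p = 0.0155). Chil3 lost the call without tolerizing array 2 or 3 (adjusted p up to 0.0661). Il4ra, the receptor chain for interleukin-4 and interleukin-13, was 2.81-fold higher (adjusted p up to 0.085). Cd36, a fatty acid and scavenger receptor, was 3.07-fold lower (adjusted p up to 0.176), and which cells of the heart its signal came from was not tested. Lysosomal cathepsins gave 2 higher of 11, Ctsc and Ctsz, with a median of 0.57. Neither was robust (adjusted p up to 0.154 and 0.141), as no cathepsin was called without rejecting array 1 or 2 or without tolerizing array 2 or 3.

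**Figure D2:**
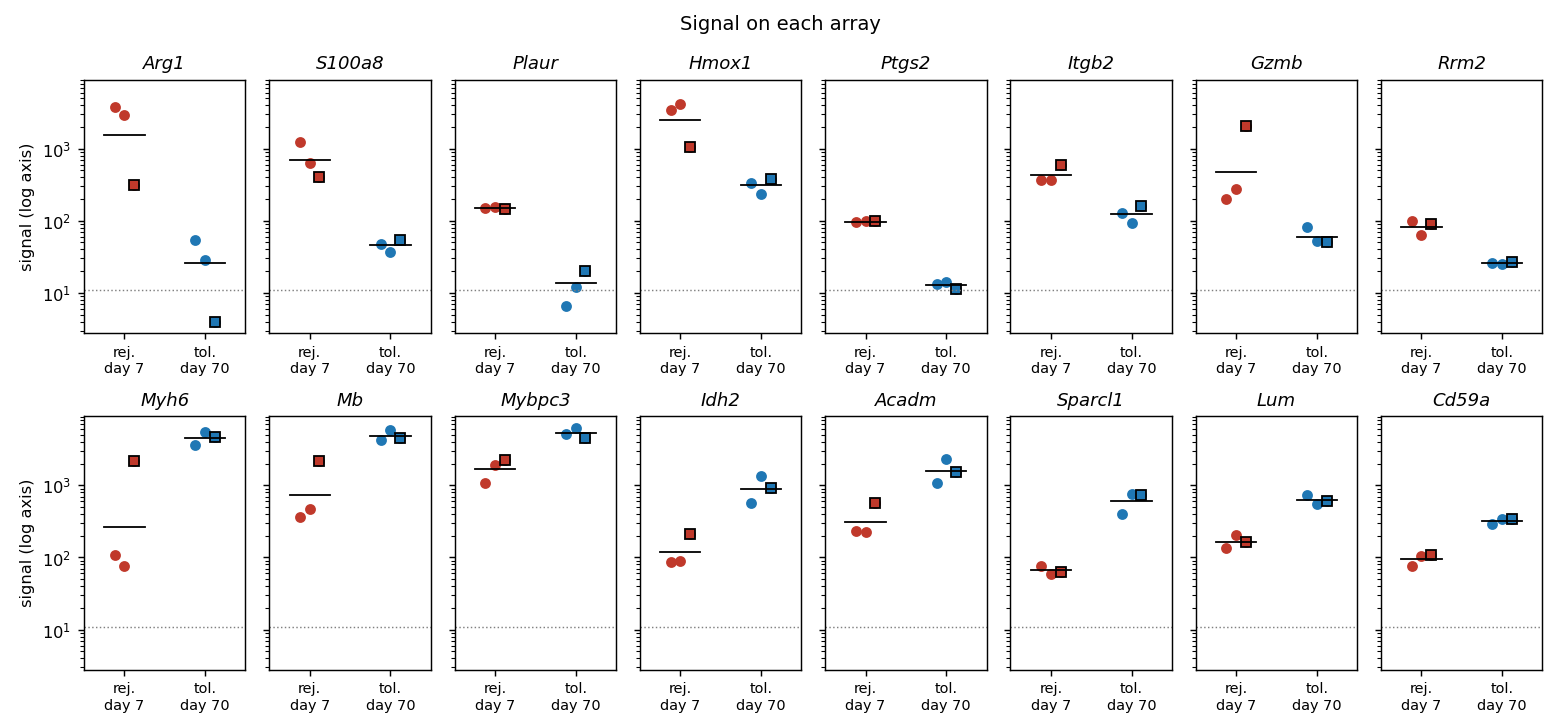
Signal on a log axis of 16 genes on each of 3 rejecting arrays at day 7 (red, left) and 3 tolerizing arrays at day 70 (blue, right). Squares mark array 3 of a group, black bars the mean on the log scale with signals below 11 set to 11, and the dotted line the floor of 11. Plaur and Ptgs2 were nearly equal over the rejecting arrays, while Arg1 and Myh6 on rejecting array 3 lay nearer to the tolerizing arrays.

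T cell genes differed less, and mostly on 1 array. Of 24 tested, 2 were higher and 1 lower, with a median of 0.68. Within the first accession run, which holds rejecting array 3, that median was 1.77, while the second run gave 0.20. Leaving rejecting array 3 out gave 0.39. Thy1, a surface glycoprotein of T cells, was 264, 375 and 901 in rejecting allografts, against 229, 74.1 and 107 in tolerizing allografts (log2 difference 1.87, adjusted p = 0.0475). Without rejecting array 3 the difference was 1.37 and Thy1 had no call (adjusted p = 0.105). The adaptor gene Sla was 3.6-fold higher, and neither call is robust (adjusted p up to 0.187 and 0.091). Cd3e, a chain of the T cell receptor complex, was 35.5, 87.2 and 249.8 on the rejecting arrays and 94.1, 17.4 and 19.9 on the tolerizing arrays, and the groups overlapped (log2 difference 1.52, 95% interval -0.27 to 3.32, adjusted p = 0.289). Cd8a, the coreceptor of cytotoxic T cells, was 70.0, 216 and 466 in the rejecting hearts, against 93.1, 44.3 and 43.3 in the tolerizing hearts (log2 difference 1.77, 95% interval 0.55 to 2.98, adjusted p = 0.0678). Cd4, the helper T cell coreceptor, was 91.8, 72.3 and 66.5 on the rejecting arrays and 86.6, 75.1 and 82.9 on the tolerizing arrays (log2 difference -0.10, 95% interval -0.67 to 0.48, adjusted p = 0.862). Cd3e, Cd8a and Cd4 were chosen after their values were seen, and an adjusted p above 0.05 does not show that the groups were alike. Cd6, an adhesion receptor of T cells, was 39.4, 32.6 and 54.9 in rejecting allografts, against 104, 189 and 193 in tolerizing allografts (log2 difference -1.92, adjusted p = 0.00558). This fall is robust, whereas 21 of the 24 genes of the list had positive differences.

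Genes of cytotoxic granules and NK cells gave 5 higher and none lower of 17, with a median of 0.92. Within the first accession run it was 2.12, while the second run gave 0.41. Gzmb, granzyme B, a protease that triggers death of the target cell, was 199.6, 273 and 2034 in rejecting allografts, against 80.9, 52.8 and 51.3 in tolerizing allografts. Rejecting array 3 held several times the signal of the other rejecting arrays, and all 3 exceeded the tolerizing arrays (log2 difference 2.99, adjusted p = 0.0119). Without rejecting array 3 the difference of Gzmb was 1.95 (adjusted p = 0.00158). Ifng, interferon-gamma itself, was 17.9, 35.2 and 112 on the rejecting arrays and 14.4, 9.9 and 6.4 on the tolerizing arrays, above 11 on 1 of 3 tolerizing arrays (log2 difference 1.78, adjusted p = 0.0323). Its difference was 1.06 without rejecting array 3 (adjusted p = 0.0271). Ifng had no call without rejecting array 2 or tolerizing array 2 or 3 (adjusted p up to 0.114), nor with quantile normalization or arrays scaled to equal medians. Prf1, perforin, which opens the membrane for granzymes and was chosen after its values were seen, was 41.7, 46.2 and 134 in the rejecting hearts, against 21.6, 20.7 and 24.1 in the tolerizing hearts (log2 difference 1.53, adjusted p = 0.047). The inhibitory NK receptor gene Klrc1 was 3.04-fold higher and Srgn, the proteoglycan core of granules, 2.28-fold higher, with adjusted p of up to 0.0545 and 0.0983. Without tolerizing array 2 no gene of this list was called, and Gzmb then had an adjusted p of 0.0546. Without rejecting array 3, 4 were called and the median was 0.47, and with arrays scaled to equal medians 3 were called. Among T cell markers the summed signal was 270.1 to 1176 in rejecting allografts and 210.7 to 459 in tolerizing allografts, with ranges that overlap.

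Lists of chemokine, cytokine and costimulation genes held up to 4 calls each, where 3.8% of all genes were higher and 5.64% lower. Chemokines and their receptors gave 4 higher of 29, with a median of 0.41. Besides Cxcl2 and Cxcl5 these were Ccr1, a receptor of inflammatory chemokines (5.67-fold, adjusted p up to 0.0568), and its ligand gene Ccl3 (2.91-fold, adjusted p up to 0.122). Of the chemokine list, 2 to 4 were higher on leaving out 1 array, 2 of them without rejecting array 2 or tolerizing array 2 or 3. For this list the first run gave a median of 0.96 and the second run 0.06. Lymphocyte cytokines and receptors gave 4 higher of 24, Il6, Ifng, Il4ra and the tumour necrosis factor receptor gene Tnfrsf1b (adjusted p up to 0.179). None of these 4 was called without tolerizing array 2, and 2 were with arrays scaled to equal medians. Checkpoint, costimulation and regulatory T cell genes gave 2 higher and 1 lower of 25. Lgals1, galectin-1, was 3433, 3146 and 2444 on the rejecting arrays and 1620.5, 1114 and 1132 on the tolerizing arrays (log2 difference 1.23, adjusted p = 0.0355, up to 0.136 with 1 array left out). The ectonucleotidase gene Nt5e was 1.96-fold higher and Tgfb2, a transforming growth factor, 2.38-fold lower, also not robust (adjusted p up to 0.114 and 0.0877). Ctla4, the inhibitory receptor for CD80 and CD86, was 41.4, 45.6 and 299.6 in rejecting allografts, against 57.8, 16.8 and 24.6 in tolerizing allografts, and the groups overlapped (log2 difference 1.52, 95% interval 0.20 to 2.84, adjusted p = 0.141). Of the antibodies' targets, Cd86 was 93.6, 154 and 159 on the rejecting arrays and 66.6, 55.4 and 46.7 on the tolerizing arrays (log2 difference 1.24, 95% interval 0.33 to 2.16, adjusted p = 0.0849), without overlap, and Cd80 was 33.8, 19.5 and 17.1 in the rejecting hearts, against 19.3, 14.9 and 12.7 in the tolerizing hearts (log2 difference 0.54, 95% interval -0.13 to 1.21, adjusted p = 0.319). Ctla4, Cd86 and Cd80 were chosen after their values were seen.

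Of 28 interferon-gamma response genes tested, 3 were higher (3.8% of all genes were) and none lower, with a median of 0.18, against 0.10 over all genes. With 1 array left out, at most 2 were lower. None was higher without rejecting array 2 or tolerizing array 2 or 3, and rejecting array 1 left out gave 1. Their median was 2.00 for rejecting allografts over isografts at day 7 and 2.08 for tolerizing allografts over isografts at day 70, though allografts and isografts also differ in donor strain. Igtp, a GTPase of this response, was 931, 1384 and 2324 in rejecting allografts, against 1386, 1752 and 1702 in tolerizing allografts (log2 difference -0.15, 95% interval -0.84 to 0.53, adjusted p = 0.814). Cxcl9, a chemokine for activated T cells, was 563, 1021 and 1948 in the rejecting hearts, against 1253, 774 and 824 in the tolerizing hearts (log2 difference 0.16, 95% interval -0.86 to 1.18, adjusted p = 0.87). Psmb8, an immunoproteasome subunit, was 911, 1271 and 1774 on the rejecting arrays and 1223, 1205 and 1153 on the tolerizing arrays (log2 difference 0.09, 95% interval -0.45 to 0.63, adjusted p = 0.862). For all 3 the rejecting arrays lay on both sides of tolerizing values, with array 3 highest. Igtp, Cxcl9 and Psmb8 were chosen after their values were seen, and the intervals are limma's. The list median on rejecting arrays 1, 2 and 3 was -0.51, 0.24 and 0.74 against the tolerizing mean, while the tolerizing arrays lay at 0.05, -0.02 and -0.01.

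The 3 genes called in that list were Socs3, Fcgr1 and Gbp2b, none of them robust. Socs3, a feedback inhibitor of cytokine receptors, was 167, 175 and 219.8 in rejecting allografts, against 90.2, 36.7 and 58.7 in tolerizing allografts (log2 difference 1.68, adjusted p = 0.0256, up to 0.123 with 1 array left out). Fcgr1, the high-affinity immunoglobulin G receptor of macrophages, was 614, 833 and 658 on the rejecting arrays and 452, 208 and 166 on the tolerizing arrays (log2 difference 1.48, adjusted p = 0.0266, up to 0.114). Gbp2b, a guanylate-binding protein, was 933, 1705 and 2275 in the rejecting hearts, against 858, 812 and 808 in the tolerizing hearts (log2 difference 0.89, adjusted p = 0.037, up to 0.128). The promoters of these 3 genes are shown because they can be read for the elements through which interferons act. Each runs from 250 bases before to 50 bases after the gene's start in RefSeq (GRCm38.p6), 5′ to 3′ on the gene's strand. Capitals mark the gamma activated site TTCNNNGAA in Socs3 (chr11:117969317-117969616, minus strand) and Fcgr1 (chr3:96293920-96294219, minus strand). In Gbp2b (chr3:142594597-142594896, plus strand) they mark a match to the interferon stimulated response element, read on the opposite strand.
Socs3: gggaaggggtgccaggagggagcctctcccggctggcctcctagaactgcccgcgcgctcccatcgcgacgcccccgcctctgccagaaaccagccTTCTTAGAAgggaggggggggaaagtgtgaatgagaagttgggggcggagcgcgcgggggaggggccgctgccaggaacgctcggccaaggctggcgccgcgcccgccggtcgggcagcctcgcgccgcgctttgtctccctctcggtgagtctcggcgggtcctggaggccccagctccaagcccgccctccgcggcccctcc
Fcgr1: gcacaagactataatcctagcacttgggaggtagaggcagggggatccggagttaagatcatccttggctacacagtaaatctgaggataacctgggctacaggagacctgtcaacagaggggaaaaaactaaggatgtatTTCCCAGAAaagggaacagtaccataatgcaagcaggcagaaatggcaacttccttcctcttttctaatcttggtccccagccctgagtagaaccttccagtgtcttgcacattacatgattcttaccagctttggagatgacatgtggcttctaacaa
Gbp2b: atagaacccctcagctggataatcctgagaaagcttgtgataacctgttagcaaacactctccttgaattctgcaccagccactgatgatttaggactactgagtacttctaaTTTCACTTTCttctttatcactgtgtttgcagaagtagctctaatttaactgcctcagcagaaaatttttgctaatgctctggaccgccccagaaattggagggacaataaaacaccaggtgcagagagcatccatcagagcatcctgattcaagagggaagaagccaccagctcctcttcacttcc
Both strands were searched. The gamma activated site occurred in 2 of the 3 called genes and in 7 of 22 uncalled genes of the list with a promoter in the table, and in 8.3% of 32851 windows of the same length. The response element occurred in 1 of the 3, in 9 of the 22 and in 3.44% of windows. A match of letters is a description of these windows and no evidence of binding.

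Type I interferon antiviral genes gave no call among 23 (11 differences positive and 12 negative, median -0.04). With 1 array left out, at most 1 of them was higher and at most 4 were lower, with medians of -0.20 to 0.14. MHC class I presentation genes gave no call among 17 (median -0.12), and at most 1 in either direction with 1 array left out. B2m, the light chain of every class I molecule, was 3014, 3426 and 3001 in rejecting allografts, against 3518, 3504 and 3206 in tolerizing allografts (log2 difference -0.12, 95% interval -0.59 to 0.36, adjusted p = 0.795). H2-K1, a class I heavy chain read by a probe set that other class I genes can share, was 4067, 4437 and 3913 on the rejecting arrays and 5671, 5280.5 and 4496 on the tolerizing arrays (log2 difference -0.31, 95% interval -0.74 to 0.12, adjusted p = 0.382). MHC class II genes gave 2 higher and 1 lower of 14, with a median of -0.01. Apart from H2-Ea the called genes were Ifi30, a lysosomal thiol reductase (2.43-fold higher, adjusted p up to 0.204), and Lgmn, a lysosomal protease (1.94-fold higher, adjusted p up to 0.168). Cd74, the class II invariant chain, was 4755, 5431 and 4296 in the rejecting hearts, against 5851, 4692 and 4350.0 in the tolerizing hearts (log2 difference -0.04, 95% interval -0.62 to 0.55, adjusted p = 0.954). H2-Aa, a class II chain, was 3788, 4153 and 3246 on the rejecting arrays and 5785, 4269.9 and 3124 on the tolerizing arrays (log2 difference -0.20, 95% interval -0.81 to 0.42, adjusted p = 0.724). B2m, H2-K1, Cd74 and H2-Aa were chosen after their values were seen. Over isografts of the same day, the class II median was 1.63 for rejecting and 2.17 for tolerizing allografts.

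The list of 27 B cell and plasma cell genes held no call, at most 1 with 1 array left out, and had a median of 0.10. Its groups did not overlap for 5 of the 27, while 24.4% of all probe sets had no overlap. Immunoglobulin probe sets, grouped after values were seen, numbered 54 tested of 64 on the array. Of these, 49 differences were negative, against 3944 of 9586 over all probe sets, and the median was -1.13. Among the 54, 6 were called lower (4.89% of all probe sets were) and none higher. The groups did not overlap for 11 of the 54, against 24.4% of all probe sets. One probe set of Ighm, the heavy chain of immunoglobulin M, was 81.6, 39.8 and 2.2 in rejecting allografts, against 3738, 337 and 374 in tolerizing allografts (log2 difference -4.56, adjusted p = 0.00571). Tolerizing array 1 held about a power of 10 more than the other tolerizing arrays. In tolerizing allografts at day 7 this probe set was 6.1, 2.5 and 2.3. No other Ighm probe set was called. The kappa chain gene Igkv10-96 was read by 3 called probe sets with differences of -2.61, -3.25 and -2.65. Probe sets for Igkv9-120 and Igkv1-133 were called lower too, at -2.21 and -1.99 (adjusted p = 0.0242 and 0.019). Variable-region genes are closely related, so which gene a probe set read is uncertain. Several probe sets can read the same transcripts, so the 54 are not separate observations. The 6 called probe sets lie outside the 142 named genes, and their calls with 1 array left out are not given. The median signal of the 54 was 83.0, 42.6 and 31.2 in rejecting allografts, against 207.1, 66.0 and 189.1 in tolerizing allografts. Within the first run the median difference was -2.48, while the second run gave -0.67. Jchain, which joins immunoglobulin M and A into polymers and is a plasma cell marker, was 433, 193 and 189.7 on the rejecting arrays and 1130.1, 447 and 803 on the tolerizing arrays (log2 difference -1.56, 95% interval -2.75 to -0.37, adjusted p = 0.0956), without overlap and without a call. Summed plasma cell markers overlapped, at 608 to 1948 in rejecting hearts, against 875 to 4014 in tolerizing hearts.

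Heart muscle genes were lower. Of 28 sarcomere genes, 14 were lower (5.64% of all genes were) and 1 higher, 26 differences were negative, and the median was -1.58. Myh6, the adult heavy chain of cardiac myosin, was 109, 76.3 and 2212 in rejecting allografts, against 3642, 5444 and 4723 in tolerizing allografts. Rejecting arrays 1 and 2 held a few percent of the tolerizing signal, and rejecting array 3 lay between them and the tolerizing hearts (log2 difference -4.11, SE 0.87, adjusted p = 0.0127). Without rejecting array 3 the difference of Myh6 was -5.64. Myh7, the slow myosin heavy chain, was 148, 155 and 2622 on the rejecting arrays and 4976, 7216 and 5959 on the tolerizing arrays, on a probe set of a family that can share Myh6 (log2 difference -3.93, adjusted p = 0.0111). The light chain gene Myl3 was 9.3-fold and Tnni3, cardiac troponin I, 8.17-fold lower. These 4 calls were lost without single arrays, with adjusted p of up to 0.0614, 0.0577, 0.0804 and 0.0724. Mybpc3, cardiac myosin-binding protein C, was 1095, 1892 and 2219.6 in the rejecting hearts, against 5217, 6261 and 4580.2 in the tolerizing hearts (log2 difference -1.67, adjusted p = 0.0051), a robust call. Actn2, the actinin of the Z disc, was 8.6, 18.6 and 47.7 on the rejecting arrays and 95, 147 and 90.7 on the tolerizing arrays (log2 difference -2.34, adjusted p = 0.00831), also robust. Tpm1, tropomyosin 1, which many other cell types express as well, was the gene called higher, at 688, 429 and 134 in rejecting allografts, against 124, 91.6 and 80.6 in tolerizing allografts (log2 difference 1.81, adjusted p = 0.0293, up to 0.112). The number of lower sarcomere genes was 2 without tolerizing array 2 and 19 without rejecting array 3, while the median stayed between -1.87 and -1.18. Within the first run it was -0.64, while the second run gave -1.91.

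Genes of calcium handling and ion channels gave 8 lower and none higher of 21, with a median of -1.01. Cacna1c, the pore of the L-type calcium channel, was 86, 98 and 144 in rejecting allografts, against 234, 344 and 380.2 in tolerizing allografts (log2 difference -1.55, adjusted p = 0.00819). Hrc, a calcium-binding protein of the sarcoplasmic reticulum, was 119.7, 100 and 146 on the rejecting arrays and 297, 529 and 443 on the tolerizing arrays (log2 difference -1.77, adjusted p = 0.00245). Both are robust and without overlap. Casq2, which stores calcium, was 2.54-fold and Gja1, the gap junction protein connexin 43, 2.13-fold lower, with adjusted p of up to 0.0729 and 0.0571. Lower genes of this list numbered 2, 3, 4 and 4 on leaving out tolerizing array 2, rejecting array 2, rejecting array 1 and tolerizing array 3, and 10 without rejecting array 3 or tolerizing array 1. Myzap, a protein of the junctions between heart muscle cells, was 20.1, 37.2 and 148 in the rejecting hearts, against 221, 440.1 and 451 in the tolerizing hearts (log2 difference -2.88, adjusted p = 0.00911), a robust call. Natriuretic peptides and fetal-type cardiac genes gave 4 lower and 1 higher of 17, with a median of -0.81. Mef2c, a transcription factor of muscle, was 13.7, 8.0 and 10.9 on the rejecting arrays and 36.9, 86.3 and 59.8 on the tolerizing arrays, above 11 on 1 of 3 rejecting arrays (log2 difference -2.28, adjusted p = 0.0051), and is robust. Hand1, a transcription factor of the embryonic heart, was 2.75-fold higher, but lost its call without single arrays (adjusted p up to 0.134). Omitting rejecting arrays 1, 2 or 3 in turn gave 2, 1 and 8 lower genes in the fetal-type list, and tolerizing arrays 2 or 3 gave 1 and 2. The peptide hormone genes Nppa and Nppb, chosen after their values were seen, had no call. Nppa was 588, 869.7 and 1460.3 in the rejecting hearts, against 2668, 2098 and 2570.4 in the tolerizing hearts (log2 difference -1.42, 95% interval -2.52 to -0.32, adjusted p = 0.0994). Nppb was 1133, 1956 and 4074 on the rejecting arrays and 5699, 7104 and 5716 on the tolerizing arrays (log2 difference -1.56, 95% interval -3.07 to -0.05, adjusted p = 0.191).

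**Figure D3:**
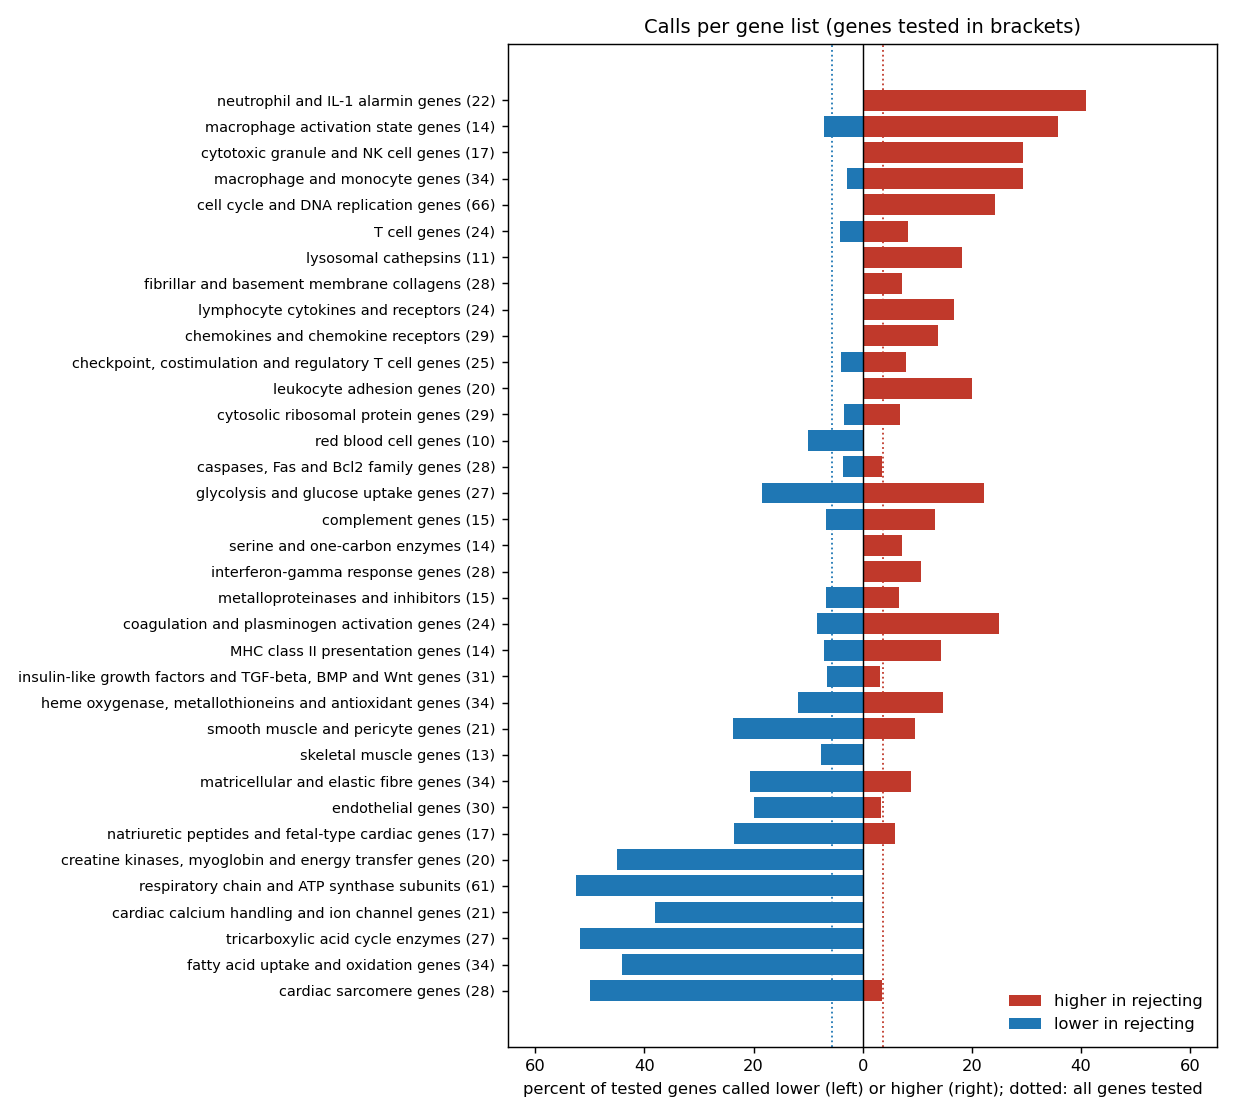
Percent of the tested genes of each list that were called higher (red, to the right) or lower (blue, to the left) in rejecting allografts at day 7 than in tolerizing allografts at day 70, for lists of at least 10 tested genes with at least 1 call, ordered by median difference. Dotted lines mark the shares over all genes, 3.8% higher and 5.64% lower. The 6 lists of muscle and mitochondria at the bottom hold nearly all their calls on the lower side.

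Energy metabolism genes of the heart were lower too. Of 20 genes of creatine kinases, myoglobin and energy transfer, 9 were lower and none higher, with a median of -0.82. Mb, myoglobin, the oxygen store of muscle, was 363, 473 and 2205 in rejecting allografts, against 4266, 5866 and 4526 in tolerizing allografts (log2 difference -2.74, adjusted p = 0.00722). Ckm, the creatine kinase of muscle, was 7.5, 11.9 and 48 on the rejecting arrays and 93.9, 279 and 236 on the tolerizing arrays (log2 difference -3.31, adjusted p = 0.00346). Ak1, adenylate kinase 1, was 88.3, 80.1 and 133 in the rejecting hearts, against 299.9, 540.2 and 508 in the tolerizing hearts (log2 difference -2.15, adjusted p = 0.00519). These 3 calls are robust, and no rejecting array reached a tolerizing one. Cox7a1, a muscle form of a cytochrome c oxidase subunit, was 16.1, 28.3 and 256 on the rejecting arrays and 329, 755 and 774 on the tolerizing arrays (log2 difference -3.56, adjusted p = 0.0111, up to 0.0568 with 1 array left out). In this list 3 to 5 genes were lower on leaving out rejecting array 1 or 2 or tolerizing array 2 or 3, and 11 without rejecting array 3.

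Fatty acid uptake and oxidation, the main fuel pathway of the adult heart, gave 15 lower and none higher of 34, with a median of -1.22. Lpl, which frees fatty acids from circulating lipoproteins, was 222, 244 and 682 in rejecting allografts, against 1214, 2091 and 2103 in tolerizing allografts (log2 difference -2.39, adjusted p = 0.0051). Acadm, a dehydrogenase of medium-chain fatty acids, was 233, 224 and 577 on the rejecting arrays and 1092, 2315 and 1514 on the tolerizing arrays (log2 difference -2.33, adjusted p = 0.0051). Oxct1, which lets the heart use ketone bodies, was 139, 175 and 361 in the rejecting hearts, against 599, 883 and 774 in the tolerizing hearts (log2 difference -1.85, adjusted p = 0.00558). Hadh, a dehydrogenase of the same oxidation cycle as Acadm, was 103, 110.0 and 103 on the rejecting arrays and 213, 606 and 537 on the tolerizing arrays, with almost equal rejecting values (log2 difference -1.96, adjusted p = 0.00558). All 4 calls are robust, and rejecting array 3 was the highest rejecting array for Lpl, Acadm and Oxct1. The 15 lower genes became 7, 6 and 5 on leaving out rejecting array 1, rejecting array 2 and tolerizing array 2. Omitting rejecting array 3 gave 19, and omitting tolerizing array 1 or 3 gave 17 and 10.

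The tricarboxylic acid cycle gave 14 lower and none higher of 27, with a median of -1.15. Idh2, mitochondrial isocitrate dehydrogenase, was 86.1, 89 and 214 in rejecting allografts, against 562, 1362 and 920.5 in tolerizing allografts (log2 difference -2.92, adjusted p = 0.00267). Ogdh and Idh3a, which encode further cycle enzymes, were 3.17-fold and 2.92-fold lower (adjusted p = 0.00589 and 0.00698). These 3 are robust. Pdha1, which feeds the cycle from pyruvate, was 2.82-fold lower and lost its call without single arrays (adjusted p up to 0.0758). Only 3 cycle genes were lower when any 1 of rejecting arrays 1 and 2 and tolerizing arrays 2 and 3 was left out, and 18 were without rejecting array 3 or tolerizing array 1. Respiratory chain and ATP synthase subunits gave 32 lower and none higher of 61, 55 differences were negative, and the median was -1.01. Uqcr11 of complex III was 169, 351 and 919 on the rejecting arrays and 1265, 2214 and 1713 on the tolerizing arrays (log2 difference -2.15, adjusted p = 0.0134). Ndufv1 of complex I was 1178, 1120.4 and 1188 in the rejecting hearts, against 1928, 3064 and 2427 in the tolerizing hearts (log2 difference -1.06, adjusted p = 0.0152). Neither is robust (adjusted p up to 0.0684 and 0.0829). No subunit was called without rejecting array 2 or without tolerizing array 2, and 45 were without rejecting array 3, with medians of -1.29 to -0.81. The cycle and the respiratory chain had medians of -0.71 and -0.54 within the first run, and -1.39 and -1.25 within the second. Nnt, which couples the mitochondrial proton gradient to NADPH, was 6.73-fold lower (adjusted p up to 0.0669).

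Glycolysis and glucose uptake had calls in both directions, with 6 higher and 5 lower of 27 and a median of 0.25. Pfkm, muscle phosphofructokinase, was 128, 124 and 237 in rejecting allografts, against 543, 1232 and 976 in tolerizing allografts (log2 difference -2.48, adjusted p = 0.00324). Eno3, muscle enolase, was 154, 189 and 668 on the rejecting arrays and 906, 1510.4 and 1503 on the tolerizing arrays (log2 difference -2.24, adjusted p = 0.00886). Both are robust. Slc2a4, the insulin-regulated glucose transporter of muscle and fat, was 6.06-fold and Ldhb, the lactate dehydrogenase chain of heart, 5.67-fold lower (adjusted p up to 0.0784 and 0.055). Pgam2, named after its values were seen, was the remaining lower gene. On the higher side Pgam1, a phosphoglycerate mutase, was 813, 904 and 917 in the rejecting hearts, against 332, 254 and 392.4 in the tolerizing hearts (log2 difference 1.45, adjusted p = 0.0094, up to 0.0545 with 1 array left out). Slc2a1, the glucose transporter of red cells and dividing cells, was 154, 201 and 145 on the rejecting arrays and 14.2, 30.3 and 63 on the tolerizing arrays (log2 difference 2.46, adjusted p = 0.0227, up to 0.0868). Aldoc, an aldolase, and Pgd, of the pentose phosphate pathway, were 4.04-fold and 2.34-fold higher (adjusted p up to 0.0757 and 0.0658). The remaining higher genes, Tkt and Taldo1, named after their values were seen, belong to the pentose phosphate pathway as well. With 1 array left out, 1 to 8 genes of this list were higher and 2 to 6 lower, with the fewest without rejecting array 2 and the most without rejecting array 3. Beside all of these stand the heart muscle markers, all 6 lower, and the part of muscle cell number in the metabolic differences was not tested.

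Called genes of the vessel wall were mostly lower. Of 30 endothelial genes, 6 were lower and 1 higher, with a median of -0.42. Sparcl1, a secreted matricellular protein of vessels, was 77, 59.5 and 62.9 in rejecting allografts, against 396, 764 and 731 in tolerizing allografts. It had the smallest p of all named genes and was 9.15-fold lower (log2 difference -3.19, SE 0.26, adjusted p = 7.96e-05). The receptor genes Kdr and Tek and the clotting factor gene Vwf were 2.01-fold, 2.27-fold and 3.53-fold lower, and none was robust (adjusted p up to 0.0847, 0.102 and 0.124). Procr, the endothelial receptor of protein C, which other cells also express, was higher at 197, 252 and 141 on the rejecting arrays and 72, 38.4 and 42.5 on the tolerizing arrays (log2 difference 1.97, adjusted p = 0.0086), a robust call. Smooth muscle and pericyte genes gave 5 lower and 2 higher of 21, with 13 differences negative and 8 positive. Their median was -0.05, or -0.46 and 0.17 within the first and the second run. Among smooth muscle markers Myh11 was lower (log2 difference -1.28). Tagln (1.56), Cnn1 (1.41) and Acta2 (-0.05) had no call. Among pericyte genes, Rgs5, a regulator of G protein signals, was 42.7, 40.6 and 49.2 in the rejecting hearts, against 111, 192 and 129.6 in the tolerizing hearts (log2 difference -1.67, adjusted p = 0.00268). Kcnj8, a potassium channel subunit, was 5.0, 9.3 and 25.5 on the rejecting arrays and 59.5, 93.1 and 71.8 on the tolerizing arrays, above 11 on 1 of 3 rejecting arrays (log2 difference -2.34, adjusted p = 0.00323). Notch3, a receptor of vascular smooth muscle, was 29.9, 30.0 and 52.1 in rejecting allografts, against 94.1, 87.8 and 104 in tolerizing allografts (log2 difference -1.40, adjusted p = 0.00558). These 3 are robust, with no overlap. Leaving out 1 array gave 1 to 7 lower endothelial genes and 3 or 4 lower smooth muscle genes, with 1 endothelial gene without tolerizing array 2 and 7 without rejecting array 3. Higher smooth muscle genes numbered 4 without rejecting array 3, 2 without tolerizing array 1 and none otherwise. Summed endothelial markers were 339 to 359 in rejecting allografts, against 469 to 557 in tolerizing allografts, with 2 of 5 lower.

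Of 5 small leucine-rich proteoglycans, which bind collagen fibrils, 3 were lower, also in every fit that left out an array, and the median was -1.81. Lum, lumican, was 134, 206 and 166 in rejecting allografts, against 743, 549 and 600.1 in tolerizing allografts (log2 difference -1.91, adjusted p = 0.00038). Dcn, decorin, was 1197, 822 and 539.5 on the rejecting arrays and 3029, 3243 and 2308 on the tolerizing arrays (log2 difference -1.81, adjusted p = 0.00285). Ogn, osteoglycin, was 19.2, 16.8 and 31.1 in the rejecting hearts, against 86.3, 188 and 152 in the tolerizing hearts (log2 difference -2.65, adjusted p = 0.00245). Rejecting arrays of all 3 genes lay far below the tolerizing arrays. The collagen list did not share this, with 2 of 28 genes higher and none lower and a median of 0.51, or -0.11 and 0.90 within the first and the second run. Neither of the 2 is a collagen chain. Without rejecting array 3 there were 12 higher genes and a median of 0.86, 4 were called without tolerizing array 1, and leaving out any of the other 4 arrays gave none. Col1a1, a chain of the main fibrillar collagen, was 4828, 3053 and 857 on the rejecting arrays and 952, 363 and 824 on the tolerizing arrays (log2 difference 1.82, 95% interval 0.67 to 2.98, adjusted p = 0.0514) and was chosen after its values were seen. The called genes were Lox, an enzyme that cross-links collagen and elastin (7.46-fold higher), and Serpinh1, a collagen chaperone (2.65-fold higher), with adjusted p of up to 0.136 and 0.0757 on leaving out 1 array.

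Matricellular and elastic fibre genes gave 3 higher and 7 lower of 34. Tnc, tenascin C, a matrix protein of injured tissue, was 540.5, 430.0 and 90.0 in rejecting allografts, against 27.2, 20.7 and 12.7 in tolerizing allografts (log2 difference 3.84, adjusted p = 0.0136, up to 0.0649 with 1 array left out). Tgfbi, a matrix protein induced by transforming growth factor beta, was 942, 1134 and 808 on the rejecting arrays and 318, 121 and 143 on the tolerizing arrays (log2 difference 2.43, adjusted p = 0.00911, up to 0.0515). On the lower side Eln, elastin, was 92.6, 99.5 and 85.2 in the rejecting hearts, against 294, 219 and 282 in the tolerizing hearts (log2 difference -1.51, adjusted p = 0.0112). Ltbp4, which binds latent transforming growth factor beta to fibres, was 112, 105 and 129 on the rejecting arrays and 299, 552 and 655 on the tolerizing arrays (log2 difference -2.05, adjusted p = 0.00235). Lama2, the laminin chain of muscle basement membrane, was 21.9, 34.1 and 48.6 in rejecting allografts, against 76.8, 155 and 192 in tolerizing allografts (log2 difference -1.99, adjusted p = 0.00746). These 3 falls are robust. Counts of this list were none higher and 4 lower without tolerizing array 2, and 8 and 8 without rejecting array 3. Among metalloproteinases Adam8 was the gene called higher and Mmp3, stromelysin 1, the gene called lower of 15 tested (5.55-fold, adjusted p up to 0.0877). The growth factor list gave 1 higher and 2 lower of 31, near the shares over all genes (3.8% and 5.64%), with a median of -0.02. In it Bmp6, a bone morphogenetic protein, was lower at 9.1, 7.0 and 11.2 on the rejecting arrays and 47.4, 35.4 and 34.3 on the tolerizing arrays, above 11 on 1 of 3 rejecting arrays (log2 difference -1.80, adjusted p = 0.00229), a robust call. Fst, follistatin, was 2.4-fold higher (adjusted p up to 0.135). Summed fibroblast markers were 2254 to 8041 in rejecting hearts, against 4606 to 5707 in tolerizing hearts, so the ranges overlap. The sum joins markers of opposite direction. Dcn and Lum, 2 of the 5, were lower, while Col1a1 (1.82), Col3a1 (0.90) and Pdgfra (-0.50) had no call.

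Coagulation and plasminogen genes gave 6 higher and 2 lower of 24. In fits that left out 1 array there were 6 or 7 higher and 0 to 2 lower, none lower without rejecting array 1 or tolerizing array 2. Serpinb2, an inhibitor of plasminogen activators made by macrophages, was 509, 160.5 and 63.2 in rejecting allografts, against 15.1, 8.7 and 9.5 in tolerizing allografts, above 11 on 1 of 3 tolerizing arrays (log2 difference 3.82, adjusted p = 0.00285). Tfpi2, a protease inhibitor, was 72.2, 80.2 and 67 on the rejecting arrays and 21.7, 11.3 and 14.6 on the tolerizing arrays (log2 difference 2.25, adjusted p = 0.00323). S100a10, a subunit of a surface receptor for plasminogen, was 1698, 1837 and 1197 in the rejecting hearts, against 774, 507 and 492 in the tolerizing hearts (log2 difference 1.43, adjusted p = 0.00698). With Plaur and Procr these are 5 robust rises. F3, tissue factor, which starts clotting, was 15.1, 20.8 and 5.0 on the rejecting arrays and 27.3, 60.7 and 58.7 on the tolerizing arrays (log2 difference -1.61, adjusted p = 0.0186, up to 0.0925 with 1 array left out). Complement gave 2 higher and 1 lower of 15. Cd59a, which blocks the membrane attack complex on host cells, was 75.4, 106 and 109.5 in rejecting allografts, against 295, 337 and 340.1 in tolerizing allografts (log2 difference -1.76, adjusted p = 0.0014), robust and without overlap. Cfp, properdin, which stabilises the alternative pathway, was 241, 250.4 and 229.9 on the rejecting arrays and 92.3, 46 and 109.7 on the tolerizing arrays (log2 difference 1.63, adjusted p = 0.0189, up to 0.0941). Of leukocyte adhesion genes, 4 of 20 were higher. Cd44, a hyaluronan receptor, was 3.19-fold and the integrin chain gene Itgal 2.57-fold higher, with adjusted p of up to 0.0546 and 0.178. Higher adhesion genes numbered 1 without tolerizing array 2, 2 without rejecting array 2 and 6 without tolerizing array 1.

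Cell cycle and DNA replication genes gave 16 higher and none lower of 66, 64 differences were positive, and the median was 0.86 (1.19 and 0.70 within the runs). Aurka, a kinase of the mitotic spindle, was 48.6, 42.3 and 55.7 in rejecting allografts, against 20.8, 11.7 and 9.5 in tolerizing allografts (log2 difference 1.81, adjusted p = 0.00543). Rrm2, the regulated subunit of ribonucleotide reductase, was 99.2, 62.5 and 90.7 on the rejecting arrays and 26, 25 and 27.1 on the tolerizing arrays (log2 difference 1.67, adjusted p = 0.00705). Both are robust. Ccnb2, a mitotic cyclin, and Kif22, a kinesin of chromosome movement, were 2.63-fold and 2.7-fold higher (adjusted p up to 0.0574 and 0.0585). Leaving out tolerizing array 1, 2 or 3 gave 25, 3 and 5 higher genes, and 10 were called on leaving out rejecting array 1 or with arrays scaled to equal medians. The E2F site, TTTCCCGC or TTTGGCGC on either strand, occurred in none of the promoters of 13 called genes that the table holds, in 10 of 43 uncalled genes and in 1.56% of all windows. That says only that those letters are not in these windows.

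Stress and housekeeping lists were mixed, where 3.8% of all genes were higher and 5.64% lower. Heme oxygenase, metallothioneins and antioxidant genes gave 5 higher and 4 lower of 34, with a median of -0.04. Txnrd1, thioredoxin reductase 1, was 348, 385 and 300.4 in rejecting allografts, against 124, 184 and 199 in tolerizing allografts (log2 difference 1.05, adjusted p = 0.00884), a robust call, and its substrate gene Txn1 was 2.14-fold higher (adjusted p up to 0.0729). Gsta4, a glutathione transferase of lipid peroxidation products, was 4.2, 7.7 and 15.7 on the rejecting arrays and 29.5, 39.6 and 37.9 on the tolerizing arrays, above 11 on 1 of 3 rejecting arrays (log2 difference -1.51, adjusted p = 0.00886), also robust. The metal-binding protein gene Mt2 was 2.88-fold higher, and Mgst3, Gstm2 and Gpx3, of glutathione metabolism, were 3.73-fold, 2.7-fold and 2.25-fold lower, none of them robust (adjusted p up to 0.096, 0.0901, 0.0946 and 0.142). This list gave 2 higher and 1 lower without tolerizing array 2, and 10 and 10 without rejecting array 3. Caspases, Fas and Bcl2 family genes gave 1 higher, Bak1, and 1 lower, Casp12, of 28, near the shares over all genes. Neither was robust (adjusted p up to 0.11 and 0.138). Constitutive proteasome subunits gave no call among 30 (median 0.06), and at most 3 lower with 1 array left out. Cytosolic ribosomal protein genes gave 2 higher and 1 lower of 29, with Rpl13a at 251, 243 and 432 in the rejecting hearts, against 95.6, 104 and 127 in the tolerizing hearts (log2 difference 1.46, adjusted p = 0.00886). Serine and one-carbon enzymes gave 1 higher of 14, the amino acid transporter gene Slc3a2 (adjusted p up to 0.171). The lists of other cells that a sample could hold had at most 1 call each: Ank1 of 10 red blood cell genes, Cidea of 9 fat genes, Ckm of 13 skeletal muscle genes, Cd1d1 of 4 thymus genes and none of 6 mast cell genes. Of these, Ank1, Cidea and Cd1d1 were not robust (adjusted p up to 0.149, 0.118 and 0.154).

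Some called genes had a group with every array at or under 11, so only a bound on the fold is known. All of them entered through 1 side alone, which already sets the groups apart. Their adjusted p and robustness are therefore no separate support for that separation. Higher in rejecting allografts with the tolerizing arrays at the floor were 14 of the 43 probe sets that entered through the rejecting side alone. Spint1, an inhibitor of surface serine proteases, was 51.8, 46.2 and 40.6 in rejecting allografts, against 9.9, 6.6 and 6.6 in tolerizing allografts. It was at least 4.18-fold higher (adjusted p = 0.00038), a robust call. Arg2, the mitochondrial arginase, was 32.4, 46.4 and 26.9 on the rejecting arrays and 10.2, 9.6 and 10.6 on the tolerizing arrays, at least 3.12-fold higher (adjusted p = 0.00324), and Fosl1, a transcription factor of the AP-1 family, at least 3.16-fold higher (adjusted p = 0.00912). Both are robust. Ereg, a ligand of the epidermal growth factor receptor, and Slc2a5, a fructose transporter, were at least 3.04-fold and 2.88-fold higher, with adjusted p of up to 0.0807 and 0.0667 on leaving out 1 array. The reverse, with the rejecting arrays at the floor, was seen for 10 of the 28 probe sets that entered through the tolerizing side alone. Clec3b, tetranectin, a plasminogen-binding protein, was 3.0, 0.7 and 2.0 in the rejecting hearts, against 43.4, 78.4 and 41.3 in the tolerizing hearts, at least 4.73-fold lower (adjusted p = 0.00856). Vtn, vitronectin, a plasma and matrix adhesion protein, was at least 2.52-fold lower (adjusted p = 0.00944). Both are robust. B3galt2, a galactosyltransferase, was at least 7.33-fold and Tnxb, tenascin X, at least 3.69-fold lower, with adjusted p of up to 0.0505 and 0.157.

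**Figure D4:**
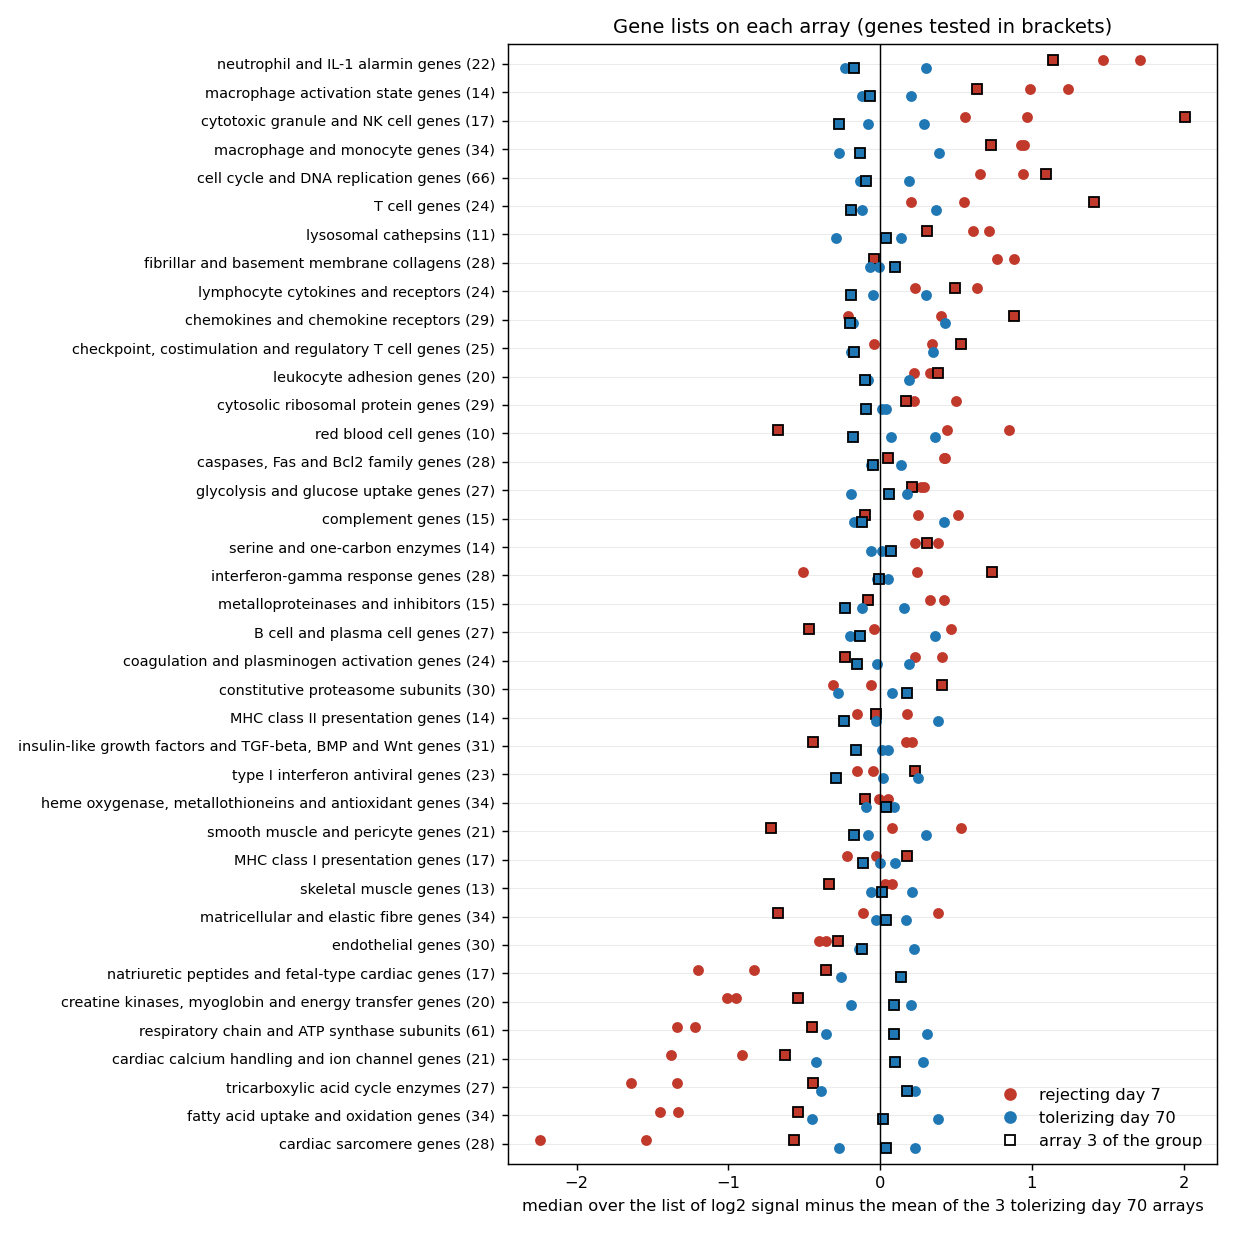
Median over the genes of each list of log2 signal minus the mean of the 3 tolerizing arrays, for each rejecting array at day 7 (red) and each tolerizing array at day 70 (blue), for lists of at least 10 tested genes. Squares mark array 3 of a group. In cardiac sarcomere genes rejecting arrays 1, 2 and 3 lay at -2.24, -1.54 and -0.57, and in cytotoxic granule and NK cell genes at 0.56, 0.97 and 2.01.

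The spread inside the rejecting group had a pattern across lists, as the plot of list medians by array shows. Rejecting array 3 was nearest to the tolerizing arrays in sarcomere (-0.57), tricarboxylic acid cycle (-0.44), respiratory chain (-0.45) and fatty acid genes (-0.54), where the other rejecting arrays lay between -2.24 and -1.22. It was farthest from them in cytotoxic (2.01), T cell (1.41) and interferon-gamma response genes (0.74). In collagens it lay at -0.04, against 0.88 and 0.77 on rejecting arrays 1 and 2. The matricellular list put it at -0.67, against 0.38 and -0.11. Neutrophil genes separated all 3 rejecting arrays (1.71, 1.47 and 1.14) from the tolerizing arrays (0.30, -0.23 and -0.17). Array 3 of each group lies in another accession run than arrays 1 and 2, and its run and its heart cannot be told apart.

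The other groups allow the comparison to be laid beside its parts by treatment and by day, with shared arrays in each. Rejecting against tolerizing allografts at day 7, which differ in treatment alone, gave 56 probe sets higher (0.584%) and 98 lower (1.02%), 1.61% in all. Tolerizing allografts at day 7 against day 70, which differ in day alone, gave 1 higher (0.0104%) and 5 lower (0.0522%), 0.0626% in all, with 620 at an unadjusted p under 0.05. Isografts at day 7 against day 70 gave none in limma (0%), with 485 at an unadjusted p under 0.05. Without any difference a share of 0.05 of the 9586 probe sets is expected under that threshold, and 485 lies close to it. The 6 calls over days in tolerizing allografts were 3 probe sets of Igkv10-96, the Ighm probe set above (difference of day 7 minus day 70 of -6.14, adjusted p = 0.00659), Apod (1.97, adjusted p = 0.0469) and an unnamed probe set.

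The medians of the lists divided unevenly between treatment at day 7 and day, as the plot of medians by comparison shows. Sarcomere genes had a median of -1.23 by treatment at day 7 and -0.27 by day in tolerizing allografts. The neutrophil list had 1.18 and 0.25, and the macrophage list 0.77 and 0.14. Fatty acid genes had -0.59 by treatment and -0.48 by day. Collagens had -0.22 by treatment and 0.59 by day, and isografts had 0.45 by day. Immunoglobulin probe sets had 0.56 by treatment and -2.01 by day, and isografts had 0.24 by day. Single genes divided in either way. Sparcl1 had -3.27 by treatment (adjusted p = 3e-05) and 0.07 by day, and Lox had a difference near 0 by treatment and 2.90 by day (adjusted p = 0.289). Cd6 had -0.27 by treatment and -1.64 by day (adjusted p = 0.113), and Vtn had -0.08 and -1.25 (adjusted p = 0.136).

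**Figure D5:**
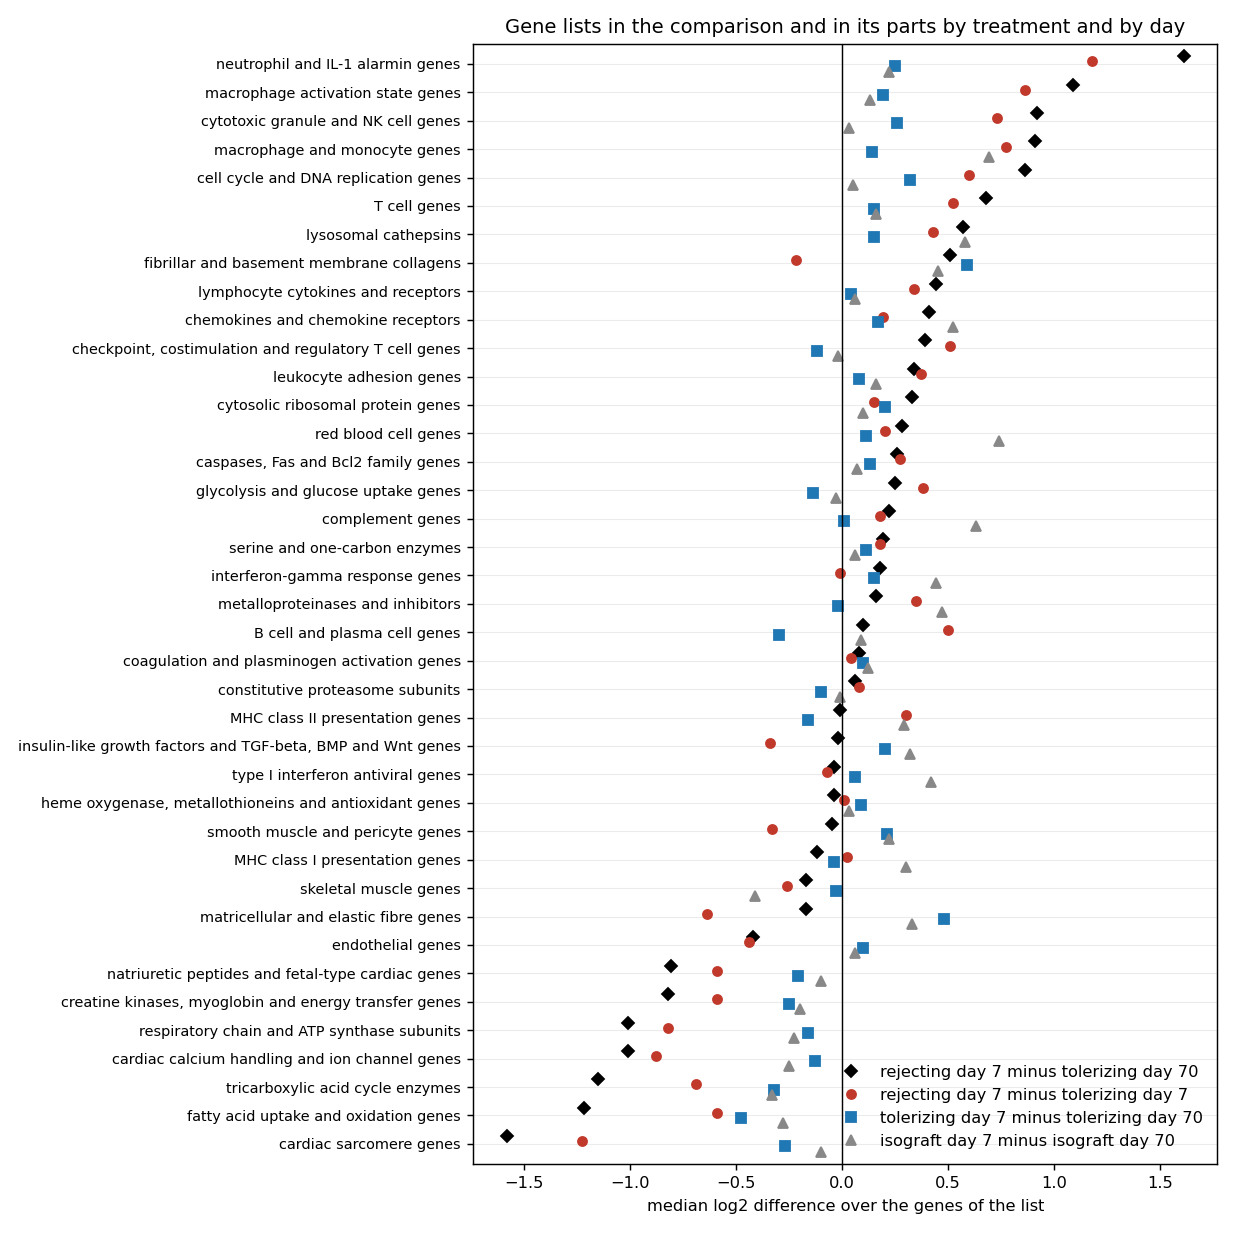
Median log2 difference over the genes of each list for rejecting day 7 minus tolerizing day 70 (black diamonds), rejecting minus tolerizing allografts at day 7 (red circles), tolerizing allografts at day 7 minus day 70 (blue squares) and isografts at day 7 minus day 70 (grey triangles), with arrays shared between comparisons. Sarcomere genes lie at -1.58, -1.23, -0.27 and -0.10, and collagens at 0.51, -0.22, 0.59 and 0.45.

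Whether the difference went beyond what isografts showed between day 7 and day 70 was tested as an interaction in the same fit. It was called for 4 probe sets (0.0417%), 1 higher (0.0104%) and 3 lower (0.0313%), with 1050 at an unadjusted p under 0.05. These were Spint1 (interaction 2.12, SE 0.32, adjusted p = 0.0287), Sparcl1 (-3.03, SE 0.39, adjusted p = 0.0105), Lum (-2.33, SE 0.29, adjusted p = 0.0105) and 1 probe set that matches several genes. Isografts moved little for the 3 named genes, by -0.06, -0.17 and 0.41. Spint1 entered the comparison through the rejecting side alone. Only 2 isograft arrays at day 70 carry this test. Leaving out rejecting array 3 raised the count to 238, and leaving out tolerizing array 1 or rejecting array 1 gave 14 and 7. Medians of the interaction over lists were -1.43 for sarcomere genes, -0.75 for the respiratory chain, 1.12 for neutrophil genes and -1.83 for small leucine-rich proteoglycans, against 0.07 over all genes.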

How the data were processed

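Signal intensity per probe set was deposited by the authors for 14 MG-U74Av2 arrays on a linear scale, with trimmed means nearly equal over arrays. Which software and scaling gave these intensities is not given in the sources available for this work. The values were not rescaled. Signals under 11 were set to 11 and log2 was taken. Control probe sets (66) were left out. Symbols are those of GEO's platform annotation brought up to date with RefSeq, giving 1 gene to 8525 of the 9586 probe sets, several to 328 and none to 733. Each gene is represented by its brightest probe set over all arrays. Linear models (limma 3.58.1, R 4.3.3) covered all 5 groups at once, with lmFit, contrasts and eBayes with a trend on intensity (9 residual and a median of 4.84 prior degrees of freedom). Two-sided p-values were adjusted by Benjamini-Hochberg over the 9586, and the script was tested on simulated data. Precision is limited by the number of arrays.

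Genes were grouped in 44 lists with 1449 entries, of which 946 genes were tested. The members and lists were chosen with earlier results of these data known. Named genes are the 10 called genes with the largest rise and the 10 with the largest fall among those above 11 on all 6 arrays, the 5 brightest called genes in each direction with the other group at the floor, up to 4 called genes per list and direction with the smallest p, and H2-Ea, 142 genes in all. Replicate numbers were not taken to pair the arrays, since same-numbered deviations correlated at 0.231, 0.030 and 0.254 and no label ties a number to an animal or day. Probe sets with _f_ or _s_ in their names can read several related genes. Alternatives were other scalings, floors, filters and fits, blocks for accession run and replicate number, a beta-actin covariate and leaving out each array.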

Additional observations from a re-analysis of the deposited data

How the results depend on the processing

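Of the 349 higher and 469 lower probe sets, the counts moved by over 1.5 times in 3 settings besides leaving out arrays. They were 213 and 249 when all 12422 probe sets were tested, 99 and 87 with the 6 arrays alone, and 1526 and 1175 with array weights. Leaving out single arrays gave 78 to 723 higher and 125 to 745 lower, with the lowest counts without tolerizing array 2 and the highest without rejecting array 3. Median scaling gave 237 and 490. The interaction beyond isograft days, called for 4 probe sets, gave 26 with a floor of 22, 2 with log2(signal + 16), 14 without a filter, 246 with array weights and 9 with the accession run as a block. It gave 3 to 238 on leaving out single arrays. With the replicate block, as a check on pairing that the numbers do not support, 423 were higher, 571 lower and 8 beyond isograft days, and 1 of the 142 named genes lost its call. Other settings (quantile normalization, a floor of 5.5, a filter on all 6 arrays, no intensity trend, the second accession run alone and the beta-actin covariate) kept each of these 3 counts within 1.5 times. All named genes kept their direction in every setting that tested them. The cause of these shifts was not tested. Signals near 11 limit the folds of dim genes.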
